A study of Trichosurus vulpecula with 6 samples.

Results

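The endothelial genes described here are 9 genes of the cells that line blood and lymphatic vessels, PECAM1, CDH5, KDR, FLT1, TEK, TIE1, VWF, EGFL7 and LYVE1, chosen by name out of 18067 genes with an assembled transcript. They were measured in ear punch skin of 6 adult female common brushtail possums (Trichosurus vulpecula), 3 with grey (agouti) fur and 3 with black fur, taken from animals freshly killed in pest control around Dunedin, New Zealand. The possums received no treatment, and a coat colour group is 3 wild animals, 1 library each. Poly(A)-enriched, strand-specific RNA libraries were read as 120 bp single reads, and the authors assembled transcripts in each library and gave each a TPM, its abundance per unit of transcript length scaled to one common total in every library. A gene's level is the sum of TPM over its transcripts.

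Endothelial cells form the inner wall of every vessel and are held together by junction proteins such as PECAM1 and VE-cadherin (CDH5). Their growth and survival depend on the receptors for vascular endothelial growth factor (KDR and FLT1) and on the angiopoietin receptor TEK with its partner TIE1. In skin, blood capillaries feed the hair follicles, while lymphatic capillaries, which carry the hyaluronan receptor LYVE1, drain fluid and immune cells from the dermis.

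Aligned sequence came to between 4.17 gigabases (grey replicate 1) and 10.2 gigabases (grey replicate 3) per library, and all 9 genes had assembled transcripts in all 6 libraries. The coverage of a member in a library was equivalent to between 326 reads (TIE1, grey replicate 1) and 16986 reads (VWF, grey replicate 2). Black replicate 1 stood apart in skeletal muscle markers, whose summed level was 3900 TPM there and 63.0 to 211 TPM in the other libraries. Grey replicate 3 stood apart in fibroblast markers, at 962 TPM against 2304 to 3609 TPM, with all 5 measured markers at their lowest in that library. Among vessel genes outside the list, CD34 (43.7 to 86.4 TPM) and RAMP2 (31.5 to 76.9 TPM) were present in every library. The part of other skin cells in their levels was not tested.

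**Figure D1:**
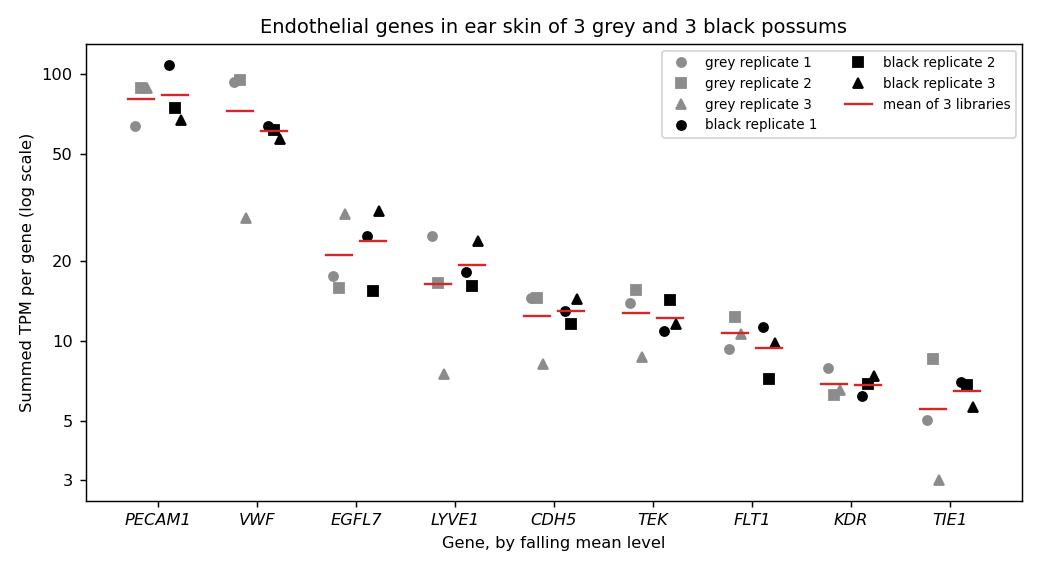
Summed TPM per gene (log axis) of the 9 endothelial genes, 1 point per library, grey points for grey and black points for black possums, marker shape for the replicate and a red line at the mean of 3 libraries. PECAM1 and VWF have the highest means, TIE1 and KDR the lowest, and the 2 colours overlap for each gene.

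PECAM1 (CD31) is an adhesion protein of endothelial junctions that is also carried by platelets and leukocytes. Its gene lies on chromosome 4, from 213243708 to 213346668 on the forward strand (assembly mTriVul1.pri, as are all positions here, with strands inferred from the assembled transcripts). PECAM1 was at 63.7, 88.9 and 88.8 TPM in grey replicates 1, 2 and 3 and at 108.5, 74.5 and 67.4 TPM in black replicates 1, 2 and 3. It had the highest mean level of the 9 genes, its highest library was black replicate 1, and the colours overlapped. The difference between black and grey was 0.037 on the log2(TPM + 1) scale (standard error 0.24, 95% confidence interval −0.53 to 0.60, adjusted p = 1 from limma). Scaling TPM to a total without the skeletal muscle markers turned this estimate to −0.022. Of 7 leukocyte markers, 6 had a transcript and their summed level ran from 10.1 to 19.0 TPM in grey and from 25.8 to 58.9 TPM in black libraries. None of the 4 tested reached the threshold of 0.05 after adjustment in limma (0 of 4) and 1 (CORO1A, listed at 0 in grey replicates 1 and 3 and at 11.7 to 33.8 TPM in black libraries) had an unadjusted p under 0.05, as did 2.29% of all genes. For 2 of the 4, CORO1A and CD2, the colours did not overlap and black was higher, as for 4.07% of all genes. For PTPRC and CD3E the colours overlapped. PTPRC was at 9.19, 4.07 and 4.97 TPM in grey skin, against 4.48, 4.93 and 15.4 TPM in black skin. CD3E was at 2.15 to 4.999 TPM in grey and 2.94 to 7.54 TPM in black libraries. The summed level includes CORO1A, and a sum without it is not given. Whether black skin held more leukocytes was not tested, nor was the part of leukocytes in the PECAM1 level.

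PECAM1 was assembled in several spliced forms. The form with 16 exons made up 67.6% to 82.9% of its TPM. A form without exon 14 (51 nt) was assembled in all 6 libraries at 2.03% to 9.75% of PECAM1, and a form without exon 15 (23 nt), also in all 6, at 2.26% to 19.0%. Both exons lie just before the last exon, in the stretch that in other mammals encodes the cytoplasmic tail, where alternative splicing of PECAM1 is well known. The share without exon 15 was 9.52%, 2.26% and 19.0% in the grey libraries and 11.3%, 12.6% and 8.22% in the black libraries, so its lowest and its highest values were both grey. A first exon 23.7 kb upstream of the RefSeq start was assembled in 4 libraries. Transcripts with it that ran to the last exon were at 6.38, 11.4, 6.18 and 8.62 TPM in grey replicates 1 and 2 and black replicates 2 and 3, and a further transcript in black replicate 3 that ended earlier was at 0.68 TPM.

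**Figure D2:**
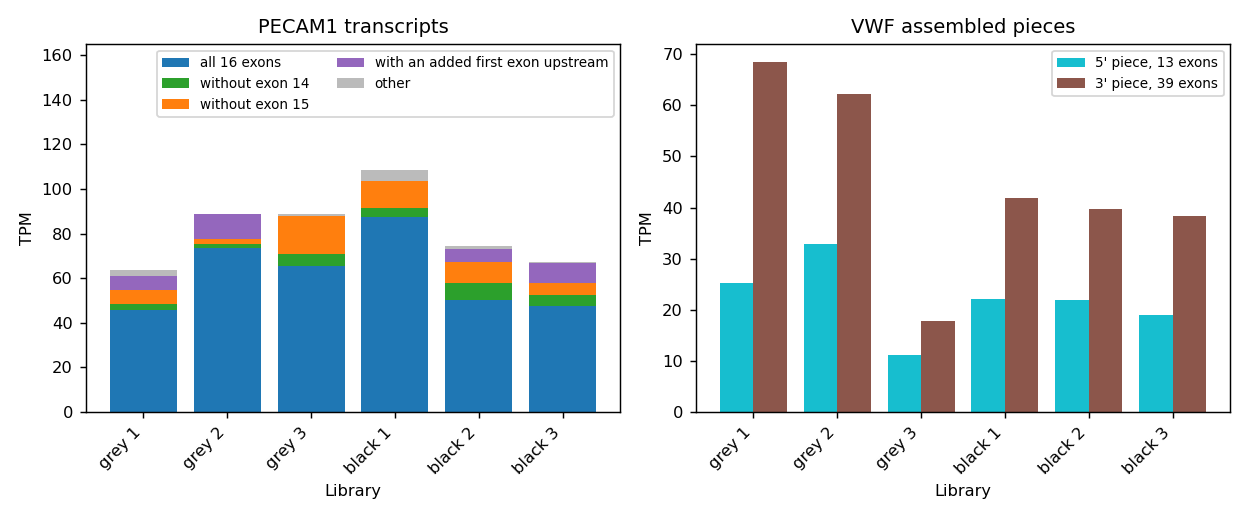
Left, TPM of PECAM1 transcripts by exon content in each library (stacked bars from 0, 1 library a bar, no error bars). Right, TPM of the 5′ and 3′ assembled pieces of VWF in each library, both lowest in grey replicate 3 at 11.2 and 17.7 TPM.

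CDH5 encodes VE-cadherin, the adhesion molecule of endothelial adherens junctions and the member most restricted to endothelium. It lies on chromosome 3, from 376549976 to 376603093 on the forward strand. CDH5 was at 14.5, 14.4 and 8.21 TPM in grey skin, against 12.9, 11.6 and 14.4 TPM in black skin. Grey replicate 3 was the lowest, and the other 5 libraries lay between 11.6 and 14.5 TPM. The black minus grey difference was 0.097 (standard error 0.25, 95% confidence interval −0.50 to 0.69, log2 scale, adjusted p = 1 from limma), and it turned to −0.15 without grey replicate 3. Transcripts with 12 exons held 87.7% to 100% of its TPM. These include transcripts that began 16183 nt (grey replicate 2, 1.20 TPM) and 16177 nt (black replicate 2, 0.66 TPM) from the 5′ end of the gene.

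KDR, the main signalling receptor for VEGFA, was the steadiest of the 9 genes. The KDR gene occupies chromosome 6, from 155508958 to 155560061 on the forward strand, and was assembled with 30 exons in every library. Its level was 7.88, 6.28 and 6.56 TPM in grey skin, against 6.23, 6.87 and 7.35 TPM in black skin, so the highest library was 1.26 times the lowest. The SD within colours was 0.13 on the log2 scale, against a median of 0.32 over all genes tested. KDR had the narrowest confidence interval of the 9 genes, from −0.46 to 0.43 around an estimate of −0.013 (log2, black minus grey, adjusted p = 1 from limma).

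A minor form of KDR, named after its values were seen, had an exon 5 of 166 nt in place of 169 nt, with the same 3′ end and a start 3 nt further on. Among transcripts with 30 exons it was assembled in all 3 black libraries, at 0.39, 0.88 and 1.23 TPM, and in 0 of the 3 grey libraries. These levels were 6.25%, 12.8% and 16.8% of KDR in black replicates 1, 2 and 3, and the coverage assigned to the form was equivalent to 73.0, 195 and 199.9 reads. A form listed at 0 in an assembly is not shown to be absent, and junction reads were not analysed here. Grey replicate 3 also had a KDR transcript of 28 exons, at 0.47 TPM, whose exon 5 was not examined. How often minor forms of other genes split the colours in this way was not counted, and the difference was not tested.

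FLT1 binds VEGFA, VEGFB and placental growth factor (PGF) and is known in other mammals both as a membrane receptor and as a soluble form that traps these ligands. The gene lies on chromosome 2, from 188598792 to 188793361 on the reverse strand. FLT1 was at 9.29, 12.3 and 10.6 TPM in grey skin, against 11.3, 7.17 and 9.79 TPM in black skin. Black replicate 2 was the lowest and grey replicate 2 the highest, with the colours overlapping. The estimate of black minus grey was −0.18 (standard error 0.22, 95% confidence interval −0.71 to 0.34, log2 scale, adjusted p = 1 from limma). With only the 30-exon form it was −0.061 (adjusted p = 1 from limma).

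Each of the 6 libraries held FLT1 in 2 kinds of transcript with the same first exons. The long form had 30 exons and ran to the end of the gene. The short form ended before exon 14. In its main transcript exon 13, which is 309 nt long in the long form, ran on into the intron after it (5086 nt), giving a last exon of 3052 to 4660 nt. Its last base lay between 110740 and 112348 nt from the 5′ end of the gene, and exon 14 began at 113084 nt. In other mammals the soluble FLT1 arises by a transcript that stops in the intron after exon 13, before the exons for the membrane-spanning and kinase parts. Whether the possum short form encodes such a protein was not examined, since it needs sequence that was not used here.

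The long form was at 4.91, 7.95 and 5.21 TPM in grey skin, against 5.93, 5.03 and 5.93 TPM in black skin. The short form was at 4.38, 4.32 and 5.42 TPM in grey skin, against 5.35, 2.14 and 3.87 TPM in black skin. The short form thus made up between 29.8% (black replicate 2) and 51.0% (grey replicate 3) of FLT1 TPM, and its coverage was equivalent to at least 404 reads in each library. Its mean share was 44.4% ± 8.24 (SD, n = 3) in grey and 38.9% ± 8.82 (SD, n = 3) in black skin, a gap smaller than either SD. The ratio of all FLT1 to KDR was 1.18, 1.95 and 1.62 in grey and 1.81, 1.04 and 1.33 in black libraries. Summed over both forms, FLT1 was above KDR in 6 of 6 libraries. The 30-exon form alone was below KDR in 5 of 6, and over one fixed exon length per gene FLT1 was below KDR in 5 of 6. That length counts every base assembled as exon in any library, 11654 nt for FLT1 and 5929 nt for KDR. The ratio did not separate the colours (difference −0.19 on the log2 scale, exact 2-sided permutation test, p = 0.6, with 0.1 the smallest p that 3 against 3 allow).

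**Figure D3:**
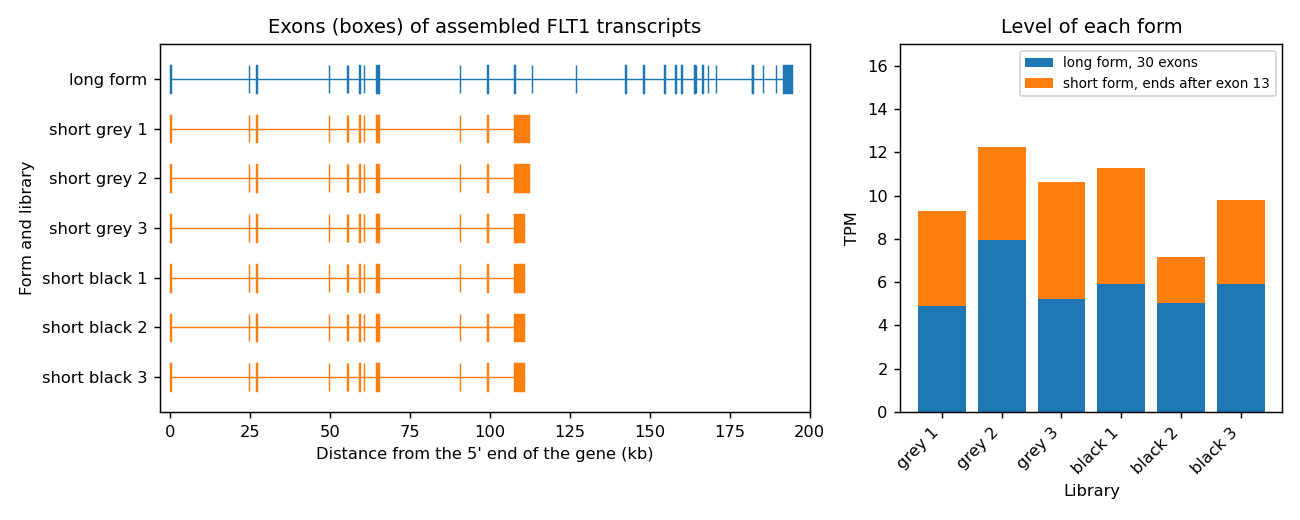
Left, exons (boxes) and introns (lines) of the FLT1 long form and of the main short-form transcript of each library, by distance from the 5′ end of the gene in kb. Right, TPM of the long form (blue) and of all short-form transcripts (orange) in each library, as stacked bars from 0 with 1 library a bar; the short form is 29.8% to 51.0% of the total.

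TEK (TIE2) is the receptor for the angiopoietins, which steady vessels or loosen them. Its gene is found on chromosome 9, from 20463000 to 20589217 on the reverse strand. TEK was at 13.9, 15.6 and 8.71 TPM in grey skin, against 10.9, 14.2 and 11.5 TPM in black skin, with grey replicate 3 the lowest. The difference was −0.027 (standard error 0.25, 95% confidence interval −0.62 to 0.57, log2 scale, adjusted p = 1 from limma). A 23-exon transcript was assembled in each library and held 86.2% to 100% of TEK.

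TIE1, a related receptor that modulates TEK and has no classical ligand of its own, had the lowest mean level of the 9 genes. The TIE1 gene is on chromosome 4, from 35665624 to 35697983 on the reverse strand. TIE1 was at 5.05, 8.54 and 3.01 TPM in grey skin, against 7.004, 6.83 and 5.63 TPM in black skin. The grey libraries held both the highest and the lowest value, and the 3 black libraries lay between them. The difference was 0.28 (standard error 0.34, 95% confidence interval −0.52 to 1.08, log2 scale, adjusted p = 1 from limma), and it turned to −0.026 without grey replicate 3. In black replicate 1 no 23-exon transcript was assembled and the gene's TPM came from transcripts of 15 and 20 exons. TEK exceeded TIE1 by 1.56 to 2.90 times in every library. The log2 ratio was 1.29 ± 0.37 (SD, n = 3) in grey and 0.91 ± 0.23 (SD, n = 3) in black skin (difference −0.38, exact 2-sided permutation test, p = 0.3).

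VWF encodes von Willebrand factor, the clotting protein that endothelial cells store and release and that megakaryocytes also make. The VWF gene spans chromosome 5, from 192968677 to 193169665 on the reverse strand. VWF was at 93.8, 94.99 and 28.99 TPM in grey skin, against 63.9, 61.7 and 57.4 TPM in black skin. Grey replicates 1 and 2 were above each black library and grey replicate 3 below each of them, so the SD was 37.8 TPM across grey and 3.31 TPM across black possums (n = 3 each). The difference was −0.067 (standard error 0.45, 95% confidence interval −1.13 to 1.00, log2 scale, adjusted p = 1 from limma), and it was −0.62 without grey replicate 3.

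In all 6 libraries VWF was assembled as a 5′ piece of 13 exons and a 3′ piece of 39 exons, with 3892 to 3919 nt between them, so its summed TPM counts one messenger in pieces. The 5′ piece was at 25.2, 32.8 and 11.2 TPM in grey skin, against 22.0, 21.9 and 19.0 TPM in black skin. The 3′ piece was at 68.6, 62.2 and 17.7 TPM in grey skin, against 41.9, 39.8 and 38.3 TPM in black skin. Both pieces were lowest in grey replicate 3, and the 3′ piece was 1.58 to 2.72 times the 5′ piece. With only the 3′ piece the black minus grey difference of VWF was −0.087 on the log2 scale. ITGA2B, an integrin subunit of platelets and megakaryocytes, was at 4.63 to 5.85 TPM in grey and 4.28 to 9.008 TPM in black libraries. No transcript of the 7 erythroid markers was found by name. The part of platelets in the VWF level was not tested.

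EGFL7 is a protein that endothelial cells secrete into the matrix around growing vessels. It lies on chromosome 3, from 171340035 to 171365167 on the reverse strand. EGFL7 was at 17.4, 15.7 and 30.02 TPM in grey skin, against 24.7, 15.4 and 30.8 TPM in black skin. Replicate 3 was the highest library in each colour and replicate 2 the lowest, and grey replicate 3 was high where CDH5, TEK, TIE1, VWF and LYVE1 were at their lowest. The difference was 0.16 (standard error 0.33, 95% confidence interval −0.63 to 0.96, log2 scale, adjusted p = 1 from limma). EGFL7 was also the member with the most varied assembly, in 4 to 9 transcripts a library, of which those with 9 or 10 exons held 37.7% to 57.5% of its TPM. A single-exon transcript of 671 nt gave 12.1 TPM of the total of grey replicate 3, and one of 711 nt gave 9.35 TPM in black replicate 1. Without them these libraries were at 18.0 and 15.4 TPM. The single-exon transcripts began 16665 nt (grey replicate 3) and 16614 nt (black replicate 1) from the 5′ end of the gene. Transcripts of 3 exons began close by in black replicate 3 (16655 nt, 12.03 TPM) and grey replicate 2 (16657 nt, 5.07 TPM). These stayed in the totals of their libraries, so the values of 18.0 and 15.4 TPM are not a like comparison with the other libraries.

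LYVE1 marks lymphatic capillaries, and some tissue macrophages carry it too. Its locus is chromosome 6, from 227619714 to 227636643 on the reverse strand. LYVE1 was at 24.8, 16.5 and 7.51 TPM in grey skin, against 18.1, 16.05 and 23.7 TPM in black skin. The 3 grey libraries span 3.30 times, with the black libraries inside that range. The difference was 0.36 (standard error 0.41, 95% confidence interval −0.61 to 1.32, log2 scale, adjusted p = 1 from limma), and it turned to −0.085 without grey replicate 3. LYVE1 relative to PECAM1 was 0.39, 0.19 and 0.085 in grey and 0.17, 0.22 and 0.35 in black libraries, so this lymphatic gene varied against the general endothelial gene by more than the colours differed (log2 difference 0.35, exact 2-sided permutation test, p = 0.7). Without grey replicate 3 that difference was −0.21.

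Among other lymphatic genes, the chemokine CCL21, which draws immune cells into lymphatic vessels, was at 95.3, 47.3 and 9.79 TPM in grey skin, against 40.1, 34.0 and 61.8 TPM in black skin. Like LYVE1 it was highest in grey replicate 1 and lowest in grey replicate 3. PDPN, podoplanin, which other dermal cells also carry, was at 25.6 to 85.5 TPM in grey and 64.2 to 81.1 TPM in black libraries, lowest in grey replicate 2. STAB2, a scavenger receptor for hyaluronan, was at 3.66 to 14.8 TPM in grey and 7.58 to 10.9 TPM in black libraries, lowest in grey replicate 3. FLT4, the lymphatic receptor for VEGFC and VEGFD, was at 5.90 to 14.4 TPM in grey and 6.55 to 8.21 TPM in black libraries. Of 9 lymphatic genes, 8 had a transcript and 7 were tested, of which 0 passed in limma and 0 had an unadjusted p under 0.05. Grey replicate 3 was the lowest library for 4 of the 7, and for 23.5% of all genes. PROX1 was lowest in black replicate 1 (1.16 TPM) and RELN in grey replicate 2 (5.69 TPM). Macrophage markers, of which 10 of 12 had a transcript, summed to 426 to 497 TPM in grey and 394 to 852 TPM in black libraries. The macrophage sum was highest in black replicate 3, where LYVE1 was second highest, and the part of macrophages in the LYVE1 level was not tested.

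**Figure D4:**
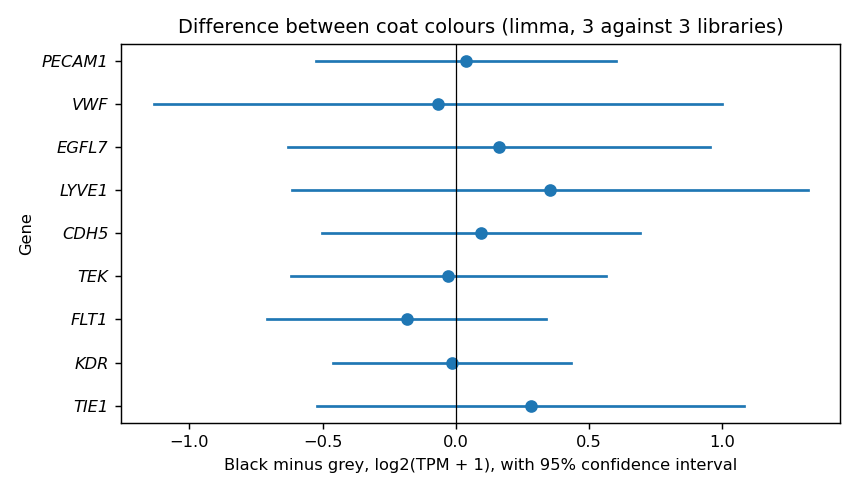
Black minus grey difference of each gene on the log2(TPM + 1) scale (point) with its 95% confidence interval (line), from limma on 3 grey and 3 black libraries. Every interval includes 0, from the narrowest, KDR (−0.46 to 0.43), to the widest, VWF (−1.13 to 1.00).

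Black and grey skin were compared across the 15593 genes whose mean reached 1 TPM, to find whether vessel genes differed with coat colour. Of the 9 endothelial genes, 0 passed an adjusted p of 0.05 in limma and 0 had an unadjusted p under 0.05, while 0.0192% of all genes passed (0.0128% higher and 0.00641% lower in black skin) and 2.29% had an unadjusted p under 0.05. The colours overlapped for all 9 genes, and did not overlap for 6.34% of all genes (4.07% with black higher and 2.28% with black lower). The estimate was above 0 for 5 of the 9 genes and for 56.9% of all genes. The median difference was 0.037 for the 9 genes and 0.037 for all genes (log2, black minus grey), and the median SD within colours was 0.32 for both. The sign of 8 of the 9 estimates turned when at least 1 of the 6 libraries, taken singly, was left out, and FLT1 was the exception, at −0.31 to −0.019. The intervals do not exclude differences inside them. In whole skin fewer endothelial cells and less RNA per endothelial cell cannot be told apart.

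Across possums the members did not move as a block. Grey replicate 3 had the lowest value of 5 members (CDH5, TEK, TIE1, VWF and LYVE1), and 23.5% of all genes tested were lowest there. In that library VWF was 1.08, LYVE1 1.06, TIE1 0.76, CDH5 0.55 and TEK 0.45 below their own means on the log2 scale. PECAM1 and FLT1 were 0.14 and 0.088 above their means in the same library and KDR was close to its mean. These 3 genes did not share the low values. Fibroblast markers were at their lowest in that library too, as given above, and their part in these values was not tested. Grey replicate 2 had the highest value of 4 members (FLT1, TEK, TIE1 and VWF), and the share of all genes highest there was not counted.

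**Figure D5:**
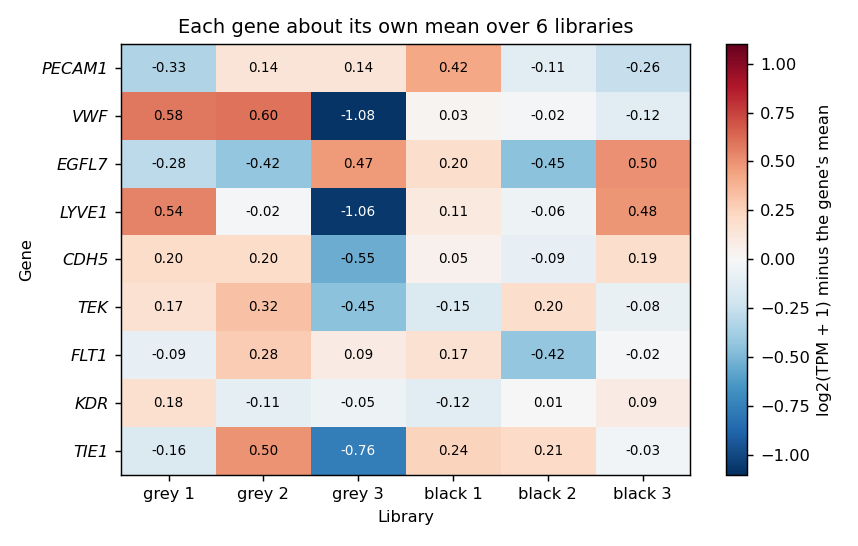
Level of each of the 9 genes (rows) in each library (columns) as log2(TPM + 1) minus the gene's mean over the 6 libraries, red above and blue below the mean. Grey replicate 3 is lowest for 5 genes, down to −1.08 for VWF, while EGFL7 is 0.47 above its mean there.

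By mean TPM over the 6 libraries the order was PECAM1 (82.0), VWF (66.8), EGFL7 (22.4), LYVE1 (17.8), CDH5 (12.7), TEK (12.5), FLT1 (10.1), KDR (6.86) and TIE1 (6.01). Of the 8 neighbouring pairs, 0 passed an adjusted p of 0.05 (exact 2-sided sign-flip permutation test within libraries, Benjamini-Hochberg over 8 pairs). The smallest p that 6 libraries allow is 0.031, with which a single pair cannot pass after adjustment over 8 pairs. The count of 0 therefore does not show that neighbours were alike. The lowest adjusted p was 0.17, for VWF over EGFL7, LYVE1 over CDH5 and FLT1 over KDR, and FLT1 over KDR was the only neighbouring pair in the same order in all 6 libraries (0.48 on the log2 scale, exact p = 0.031, the smallest possible). That order turned over a fixed exon length, as given above. CDH5 and TEK were closest, with CDH5 higher in 3 of 6 libraries. Of all 36 pairs of members, 26 kept the same order in all 6 libraries. PECAM1 was above every member but VWF in each library. The VWF level adds a 5′ and a 3′ piece of 1 messenger, as given above, which raises it against genes assembled whole. The order depends on the length a gene is divided by. The fixed exon length counts every base assembled as exon in any library, at 15499 nt for EGFL7, 11654 nt for FLT1 and 5929 nt for KDR. Their longest single transcripts had 5122, 7170 and 5929 nt, so genes with varied assemblies are divided by more. Over one fixed exon length per gene EGFL7 ranked 9 in place of 3, LYVE1 ranked 3, TEK (rank 4) came before CDH5 (rank 5), KDR (rank 6) before FLT1 (rank 7), and TIE1 ranked 8. PECAM1 and VWF kept ranks 1 and 2, and 24 of the 36 pairs were in the TPM order in all 6 libraries.

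The ligands and partners of these receptors were tested as 15 genes, of which 0 passed in limma and 0 had an unadjusted p under 0.05, with 5 estimates above and 10 below 0. VEGFA, the ligand of KDR and FLT1, was at 29.98, 41.8 and 31.1 TPM in grey skin, against 28.5, 30.2 and 31.3 TPM in black skin, above both of its receptors in every library. VEGFB was at 13.8 to 19.7 TPM in grey and 6.72 to 27.01 TPM in black libraries, and PGF at 10.5 to 14.9 TPM and 9.35 to 11.04 TPM. VEGFC and VEGFD, the lymphatic ligands, were at 3.48 to 7.38 and 0.90 to 2.11 TPM in grey and at 4.55 to 7.77 and 0.54 to 1.78 TPM in black libraries. For each of these ligands the colours overlapped.

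Of the angiopoietins, ANGPT1, the activating ligand of TEK, was the one gene of these 15 whose colours did not overlap, where 6.34% of all genes did not. It was at 1.07, 0.89 and 0.88 TPM in grey skin, against 2.44, 1.48 and 1.75 TPM in black skin (log2 difference 0.56, standard error 0.31, 95% confidence interval −0.18 to 1.29, adjusted p = 1 from limma). ANGPT2, which endothelial cells release and which can oppose ANGPT1, was higher than ANGPT1 in each library, at 4.84 to 9.39 TPM in grey and 6.35 to 11.5 TPM in black libraries. ANGPT4, another TEK ligand, was at 2.10 to 2.80 TPM in grey and 1.495 to 2.46 TPM in black libraries. The VEGF co-receptors NRP1 and NRP2 were at 11.9 to 28.8 and 6.17 to 13.8 TPM in grey and at 16.5 to 18.9 and 3.53 to 11.4 TPM in black libraries.

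Of 25 other genes of endothelial identity, 22 had a transcript and were tested, and 0 passed in limma. The estimate was above 0 for 19 and below 0 for 3, with a median of 0.12 against 0.037 for all genes, of which 56.9% were above 0. Grey replicate 3 was the lowest library for 15 of the 22, and for 23.5% of all genes. An unadjusted p under 0.05 was found for 1 of the 22, against 2.29% of all genes. This gene, LMO2, a transcriptional partner of TAL1, was at 16.1, 18.1 and 28.4 TPM in grey skin, against 30.2, 36.4 and 35.5 TPM in black skin (log2 difference 0.72, standard error 0.24, adjusted p = 1 from limma). The colours did not overlap for 3 of the 22, against 6.34% of all genes. These were LMO2 and CD93, which were higher in each black library, and NOS3, the endothelial nitric oxide synthase, which was at 4.46 to 5.27 TPM in grey and 2.97 to 3.57 TPM in black libraries. CD34, RAMP2 and ESAM had the highest mean levels of this list, at 62.9, 55.8 and 43.3 TPM.

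The genes whose pattern was most like the mean of the 9 members over the 6 libraries were ATG7, ANAPC7, CIZ1, HLTF and SUCLA2, out of 9490 named genes averaging 5 TPM or more. Their mean-centred log2 levels differed from that of the members by a root mean square of 0.019 to 0.045, where the members' mean itself had an SD of 0.195 over libraries. For LYVE1 alone the nearest were FBLN2, TMED3 and CCDC80 (0.077 to 0.12), and for VWF alone ESR1, NSD2 and LMO4 (0.14 to 0.15). FBLN2, for example, was at 20.7, 15.3 and 7.10 TPM in grey skin, against 15, 13.7 and 22.2 TPM in black skin, with its highest value in black replicate 3, while that of LYVE1 was in grey replicate 1. The likeness is a description over 6 libraries and carries no test.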

How the data were processed

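Adapters and low-quality bases were cut by the authors with Trim Galore (version 0.6.10), and the reads were mapped to the possum reference assembly mTriVul1.pri with HISAT2 (version 2.2.1), cleared of amplicon contamination and assembled, library by library, with StringTie (version 2.2.0). The other attribute values deposited beside TPM were coverage and FPKM. Aligned bases were computed by dividing coverage by FPKM, and reads as coverage times length over 120 bp. The RefSeq gene table gives spans only, so exons and strand were inferred from transcripts matching a span (joint overlap of at least 0.5, or 80% of either inside the other), and 232391 of 274079 transcripts were assigned, 658 of them by the gene name in the file and the rest by shared exon bases on that strand. TPM was summed per gene and tested with limma (version 3.58.1, R 4.3.3, mean-variance trend) on log2(TPM + 1) for genes whose mean reached 1 TPM, adjusted by Benjamini-Hochberg over all genes (threshold 0.05). The scale understates changes of low genes. Ratios and orders used exact permutation tests (scipy 1.17.1). The fit was also run on simulated data with independent noise for each gene, which did not mimic differences in tissue content between libraries. The outcome of that run is not given here. The members and lists were chosen with earlier results of these data known. All 9 members are named, with the VEGF and angiopoietin ligands and receptors, up to 3 of the highest genes of each other list, genes of most like pattern by root mean square difference, and any gene of a list past the threshold (0 genes). The macrophage, fibroblast, adipocyte and skeletal muscle lists are given as sums. CD2, LMO2, CD93, NOS3, the pericyte and smooth muscle markers other than TAGLN, ACTA2 and DES, and the KDR form were named after their values were seen. So were PROX1 and RELN. Alternatives were other pseudocounts (0.1 and 5), filters, scalings, variance models, library weights, a replicate block, multi-exon transcripts, a fixed exon length and leaving out each library. Values for the 30-exon form of FLT1 and the 3′ piece of VWF were added after seeing the data. With so few libraries p-values cover the spread between these animals only. One marker of the platelet list is not reported here.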

Additional observations from a re-analysis of the deposited data

How the results depend on the processing

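Under the 19 alternatives, 0 of the 9 endothelial genes passed an adjusted p of 0.05 in limma, and their lowest adjusted p was 0.99. Of 155 values of single genes, 135 kept their direction and 20 turned. PECAM1 turned from 0.037 to −0.0016 with upper quartile scaling, −0.022 without the skeletal muscle markers in the total and −0.040 with library weights, KDR from −0.013 to 0.018 with library weights, and EGFL7 from 0.16 to −0.031 over a fixed exon length. Leaving out each library in turn gave −0.17 to 0.17 for PECAM1, −0.15 to 0.22 for CDH5, −0.070 to 0.073 for KDR, −0.26 to 0.13 for TEK, −0.026 to 0.60 for TIE1, −0.62 to 0.22 for VWF, −0.046 to 0.44 for EGFL7 and −0.085 to 0.72 for LYVE1. It gave −0.40 to 0.0017 for the log2 FLT1/KDR ratio (turned without black replicate 2), −0.21 to 0.90 for LYVE1/PECAM1 (turned without grey replicate 3) and −0.59 to −0.24 for TEK/TIE1, for which the smallest possible p is 0.2.

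Of all genes, 3 were called, 1 with a mean of at least 5 TPM, 7 over a fixed exon length and 0 to 3 without each library. With the replicate block 0 genes were called, and 0 members. The labels do not say that equal numbers pair the possums. Same-numbered libraries deviated together with correlations of −0.021, 0.017 and −0.050 across genes, and not every library correlated best with its own number. A shared collection or preparation batch was not tested. The block left the ratio differences as they were (−0.19, −0.38 and 0.35), with 0.25 the smallest p of 3 pairs. Neighbouring pairs of members in the same order in every library numbered 1, and 2 with multi-exon transcripts, 3 over a fixed exon length and 1 to 3 without each library. The sign-flip test cannot pass with 5 libraries (smallest p 0.0625) and was not run there. The cause of these changes was not tested. Depth limits minor transcript forms most, since a form with few reads can be missing from an assembly.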

Other observations

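Genes of arteries, veins and the vessel wall were also measured. Of 11 arterial and Notch genes, 11 were tested and 0 passed in limma, with 8 estimates above and 3 below 0 and 0 unadjusted p under 0.05. JAG1, a Notch ligand, was at 20.2 to 23.6 TPM in grey and 18.5 to 32.8 TPM in black libraries, EFNB2, an arterial ephrin, at 19.5 to 26.4 and 14.5 to 24.8 TPM, and GJA4, a connexin of arterial endothelium, at 8.76 to 24.2 and 15.7 to 22.2 TPM. Of 7 venous and adhesion genes, 5 were tested and 0 passed. EPHB4, the venous partner of EFNB2, was at 21.8 to 26.8 TPM in grey and 17.5 to 24.7 TPM in black libraries, and the adhesion receptor SELE at 7.85 to 24.3 and 9.94 to 19.9 TPM.

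Of 11 pericyte and smooth muscle markers, 11 were tested and 0 passed in limma. Without DES, which skeletal muscle shares and which was at 605.5 TPM in black replicate 1, their summed level was 662, 1509 and 648 TPM in grey skin, against 838, 766 and 1014 TPM in black skin. It was highest in grey replicate 2. TAGLN and ACTA2, proteins of the contractile apparatus of smooth muscle, were at 597.9 and 432 TPM in that library and at 220 to 403 and 154 to 330 TPM in the others. MYH11, CNN1 and LMOD1 of smooth muscle were also highest in grey replicate 2, but RGS5, PDGFRB, CSPG4, NOTCH3 and MCAM were not. PDGFRB was at 39.2 TPM there and 55.0 TPM in black replicate 1, and RGS5 at 12.3 TPM there and 22.2 TPM in grey replicate 1. The adipocyte markers, 5 of 7 with a transcript, summed to 55.9 to 88.3 TPM in grey and 35.7 to 67.4 TPM in black libraries, and the keratinocyte marker TP63 was at 36.6 to 48.7 and 39.7 to 43.9 TPM.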
